A study of Mus musculus with 10 samples.

Results

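The small heat shock proteins described here are 7 mouse genes, Hspb1, Hspb2, Hspb3, Hspb6, Hspb7, Hspb8 and Cryab, taken by name and measured by summing read counts over the annotated transcripts of each. They are 7 of 20009 genes with a count in any library. The question of the study was how the transcriptome of soleus, a slow-twitch muscle of the calf, differs from that of tibialis anterior (TA), a shin muscle of the fast-twitch kind. There were 10 libraries, 1 of soleus and 1 of TA from each of 2 female and 3 male mice, all wild type, with no treatment, strain, age or batch given. Libraries are named below by muscle, sex and replicate number, and soleus and TA libraries of the same sex and number are read as 1 mouse.

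Small heat shock proteins are chaperones that share an alpha-crystallin domain. They work without ATP: they assemble into oligomers, bind proteins that are unfolding and keep them from aggregating until ATP-driven chaperones of the Hsp70 family refold them or hand them on for breakdown. Striated muscle is rich in several of them, and they are known there for binding desmin, actin, filamin and titin under mechanical load.

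Total counts were 726414 to 961844 in soleus libraries and 784535 to 939725 in TA libraries, and a single gene model, Gm20594, took 22.1% to 28.4% of them in soleus and 17.2% to 20.9% in TA. Levels are in CPM, counts relative to the library size after TMM scaling, which sets the libraries to a common scale. Here 3 counts, the limit that a count of 0 allows by counting error, stand for 3.08 to 4.10 CPM per library. The muscles matched their labels: 8 of 8 slow-fiber markers were higher in soleus, with a sum of 7406 to 9767 CPM in soleus and 4.73 to 19.0 CPM in TA, where Tnni1 and Myl2 had no count. All 8 fast-fiber markers were lower in soleus, with 12663 to 18952 CPM in soleus and 77184 to 106882 CPM in TA. A pair of libraries stood apart. Soleus female 2 had a count in 15070 genes, against 11073 to 11858 in the other soleus libraries, and TA female 1 had the lowest fast-fiber sum and the highest slow-fiber sum of the TA libraries. In whole muscle, fewer cells of a type and less RNA per cell cannot be told apart.

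The promoters of 5 of the 7 genes were in the RefSeq promoter table (GRCm38.p6), Hspb2 and Cryab being the others. The 250 bases before the annotated start are shown for the pair of genes with the largest difference between the muscles, Hspb7 and Hspb6, and for Hspb1 and Hspb8, which did not pass the test. Searched on both strands, the motifs were the TATA box TATAAA, the heat shock element cores GAANNTTC and TTCNNGAA, the MEF2 site CTAAAAATA, the myogenic E-box CAGCTG and the MCAT site CATTCC, the last 3 known from muscle promoters. Matches are in capitals. The windows are chr4:141420529-141420778 (plus strand) for Hspb7, chr7:30553051-30553300 (plus strand) for Hspb6, chr5:135887669-135887918 (plus strand) for Hspb1 and chr5:116422865-116423114 (minus strand) for Hspb8.
Hspb7: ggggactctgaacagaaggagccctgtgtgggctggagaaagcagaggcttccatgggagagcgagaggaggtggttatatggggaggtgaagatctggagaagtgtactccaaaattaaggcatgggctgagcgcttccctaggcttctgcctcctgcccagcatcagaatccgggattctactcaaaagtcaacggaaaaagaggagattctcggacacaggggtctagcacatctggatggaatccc
Hspb6: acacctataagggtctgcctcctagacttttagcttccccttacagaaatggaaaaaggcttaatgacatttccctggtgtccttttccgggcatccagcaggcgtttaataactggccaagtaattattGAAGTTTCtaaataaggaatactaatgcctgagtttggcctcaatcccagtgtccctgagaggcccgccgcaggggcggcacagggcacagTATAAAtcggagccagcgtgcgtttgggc
Hspb1: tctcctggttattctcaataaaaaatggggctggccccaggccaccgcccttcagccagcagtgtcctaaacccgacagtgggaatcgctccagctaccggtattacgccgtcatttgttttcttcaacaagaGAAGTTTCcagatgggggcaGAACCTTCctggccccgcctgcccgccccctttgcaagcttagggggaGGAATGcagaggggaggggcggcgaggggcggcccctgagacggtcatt
Hspb8: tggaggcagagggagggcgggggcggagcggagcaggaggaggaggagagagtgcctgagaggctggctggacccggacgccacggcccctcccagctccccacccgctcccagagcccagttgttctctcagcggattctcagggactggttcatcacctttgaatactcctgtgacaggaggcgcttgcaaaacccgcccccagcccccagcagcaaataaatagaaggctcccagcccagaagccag

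Hspb1 held GAANNTTC at -117 and -97 and CATTCC, on the minus strand, at -49, counted from the start. Hspb6 held GAANNTTC at -120 and TATAAA at -29. This window is the nearer of 2 listed for Hspb6 to the start of its main transcript, and the other held none of the motifs. The RefSeq start used, 30553301, lies inside that transcript, Hspb6-201, which begins at 30553268. The TATAAA at -29 therefore falls within Hspb6-201 and not before its start. Hspb3, not shown, held GAANNTTC at -224 and TATAAA at -11. Neither Hspb7 nor Hspb8 held a match. Of 32851 promoters of the same length, 6.69% held GAANNTTC, 7.17% TTCNNGAA, 12.4% TATAAA, 0.469% CTAAAAATA, 13.0% CAGCTG and 12.6% CATTCC. These matches describe letters in a window and are not binding sites.

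The summed level of the 7 genes was higher in each soleus library than in any TA library. It was 5415, 5055, 6750, 6353 and 6671 CPM in soleus (female 1, female 2, male 1, male 2, male 3), against 2913, 955.5, 1351, 765.5 and 1317 CPM in TA in the same order of mice. The lowest soleus library lay above the highest TA library, and the means were 6049 ± 768 CPM in soleus and 1461 ± 849 CPM in TA (SD, n = 5 each). Hspb7 made up most of the sum in soleus. Without it, the other 6 summed to 1388 ± 165 CPM in soleus and 652 ± 258 CPM in TA (SD, n = 5 each), still with no overlap, though the gap was narrow: the lowest soleus library had 1165 CPM and the highest TA library 1080 CPM.

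The genes were tested across all genes with edgeR's quasi-likelihood test with sex as a covariate, and a gene is called where its Benjamini-Hochberg adjusted p is under 0.05. Of the 7, 6 passed the filter on low counts and 3 of these were called, Hspb7, Hspb6 and Hspb2, all higher in soleus. Among the 5115 genes tested 22.1% were called, 11.0% higher and 11.1% lower in soleus. The median log2 fold change of the 6 was 0.83, against 0.01 over all tested genes. The members were chosen with earlier results of these data known, so these values describe them and do not test the set. Hspb8 had an unadjusted p under 0.05 only. The share of all tested genes with no overlap between the muscles is not given here, so a lack of overlap has no such background. Each log2 fold change sets soleus over TA, so a positive value is higher in soleus.

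**Figure D1:**
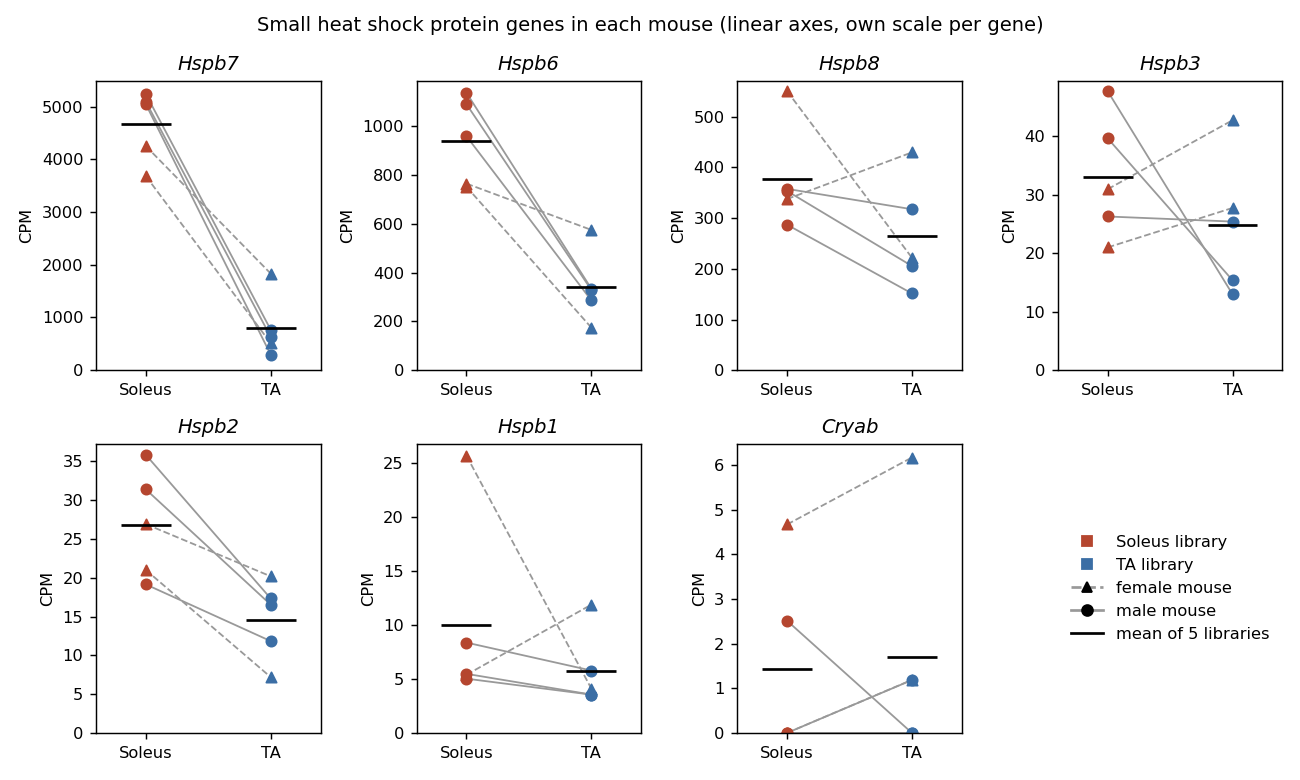
Level of each of the 7 genes in CPM (linear axes, a scale of its own per gene) in soleus and TA, with triangles for females, circles for males, the libraries of a mouse joined by a line, and a bar at the mean of 5 libraries. Hspb7 and Hspb6 have no overlap between the muscles, while Hspb8, Hspb3, Hspb2, Hspb1 and Cryab overlap.

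Hspb7, also called cvHSP, is the cardiovascular small heat shock protein; it is found in heart and skeletal muscle, binds filamin C and is needed for the assembly of heart muscle filaments in mice. The gene lies on chromosome 4 (141420779 to 141425311, plus strand, GRCm38), and its counts came from 1 transcript of 2769 bases. Its level was 4250, 3681, 5236, 5044 and 5091 CPM in soleus (female 1, female 2, male 1, male 2, male 3), against 1833, 513.7, 768, 295.8 and 633 CPM in TA. Every soleus library was above every TA library, and TA female 1 stood above the other TA libraries. The means were 4660 ± 669 CPM in soleus and 809 ± 598 CPM in TA (SD, n = 5 each). The log2 fold change was 2.61 (SE 0.39, 95% interval 1.76 to 3.47, edgeR adjusted p = 0.000459). Within mice the ratio of soleus to TA was 2.32 in female 1, 7.17 in female 2, 6.82 in male 1, 17.1 in male 2 and 8.05 in male 3, above 1 in 5 of 5. Without TA female 1 the fold change was 3.07 (SE 0.26).

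Hspb6, or Hsp20, is known for its phosphorylation by cyclic-nucleotide-dependent kinases and for a role in the relaxation of smooth muscle and the protection of heart muscle. It lies on chromosome 7 (30552178 to 30555443, plus strand), and 99.6% of its counts fell on 1 of its 4 annotated transcripts, Hspb6-201. The level was 764, 751, 1089, 958 and 1136 CPM in soleus, against 575, 175, 329, 286 and 334 CPM in TA, in the same order of mice. Again the muscles did not overlap and TA female 1 was the highest TA library. The means were 939.7 ± 179 CPM in soleus and 339.7 ± 146 CPM in TA (SD, n = 5 each), a log2 fold change of 1.45 (SE 0.27, 95% interval 0.87 to 2.04, edgeR adjusted p = 0.00202). The ratio was 3.31, 3.35 and 3.40 in males 1, 2 and 3, a narrow range, and 1.33 and 4.30 in females 1 and 2. Without TA female 1 the fold change was 1.82 (SE 0.15).

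Hspb2 and Hspb3 form a complex with each other in muscle cells. Hspb2, which is also known to bind the myotonic dystrophy kinase Dmpk, was the weakest of the 3 calls. It had 26.9, 20.99, 35.8, 19.1 and 31.4 CPM in soleus, against 20.2, 7.19, 17.3, 11.8 and 16.5 CPM in TA. The ranges overlapped, since soleus male 2 lay below TA female 1, but within each of the 5 mice soleus was higher, by 1.33 to 2.92 times. The log2 fold change was 0.88 (SE 0.29, 95% interval 0.25 to 1.51, edgeR adjusted p = 0.0480). The call did not hold when any of 7 libraries was left out (of 10 tried), with an adjusted p of up to 0.123: this was so without soleus male 1, soleus male 3, soleus female 1, TA female 2, TA male 1, TA male 2 or TA male 3. It was also lost under 4 of the other alternatives, given with the processing. Hspb2 lies on chromosome 9 (50751078 to 50752354, minus strand) and overlaps Cryab on the opposite strand over 1030 bases; whether the counting used strand is not given in the sources used here.

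Hspb3, the partner of Hspb2, is a gene of 1 exon on chromosome 13 (113662896 to 113663676, minus strand). It had 30.9, 20.99, 26.3, 39.6 and 47.7 CPM in soleus, against 42.7, 27.7, 25.4, 15.4 and 12.99 CPM in TA. The muscles overlapped over most of their range, and soleus was higher in 3 of 5 mice, the 3 males. In male 1 both muscles had 22 counts, and the CPM differed by the scaling of the libraries alone. The log2 fold change was 0.44 (SE 0.33, 95% interval -0.28 to 1.16) and missed the threshold (edgeR adjusted p = 0.401).

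Hspb8, or Hsp22, is the small heat shock protein that binds the co-chaperone Bag3 and takes part with it in the selective autophagy of damaged filamin. It lies on chromosome 5 (116408491 to 116422864, minus strand). Its level was 338, 550.5, 354, 287 and 358 CPM in soleus, against 429.7, 222, 206, 151 and 318 CPM in TA. TA female 1 was above all soleus libraries but soleus female 2. Soleus was higher in 4 of 5 mice, and the log2 fold change of 0.52 (SE 0.23, 95% interval 0.01 to 1.03) missed the threshold (edgeR adjusted p = 0.141, unadjusted p = 0.0465). Without soleus female 2 and TA female 1, an alternative chosen after seeing the data that keeps 1 female library of each muscle, it was 0.61.

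Hspb1, or Hsp25 in the mouse, is a heat-inducible member phosphorylated by the kinase Mapkapk2 and known for its action on actin filaments. It lies on chromosome 5 (135887919 to 135889563, plus strand). It was low, with 66 counts in all: 5.38, 25.7, 8.36, 5.47 and 5.02 CPM in soleus, against 11.9, 4.11, 5.77, 3.55 and 3.54 CPM in TA. Soleus female 2 and TA female 1 were each the highest of their muscle, and the remaining libraries lay between 3.54 and 8.36 CPM, near the 3-count limit. The log2 fold change was 0.77 (SE 0.49, 95% interval -0.29 to 1.84, edgeR adjusted p = 0.305), and without soleus female 2 it was 0.22.

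Cryab encodes alphaB-crystallin, a chaperone of desmin whose mutations cause a desmin-related myopathy in humans. It lies on chromosome 9 (50751325 to 50756636, plus strand). Only 14 counts fell on it in the 10 libraries, 0, 4, 0, 0 and 2 in soleus against 1, 6, 0, 1 and 0 in TA, so it did not pass the filter. The means were 1.44 CPM in soleus and 1.71 CPM in TA, a difference of -0.27 CPM (exact 2-sided permutation test over all splits of 5 against 5 libraries, p = 0.841), and no difference was detectable with so few counts. Few stretches of sequence particular to 1 transcript are found in Cryab. Of the 916 31-base stretches of Cryab-201, its transcript with the most counts, 99 are found in no other annotated transcript. All 916 are found in no other gene. How reads shared by several transcripts were counted is not given, so these counts may understate the level of Cryab in both muscles, and low counts here do not show a low level.

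**Figure D2:**
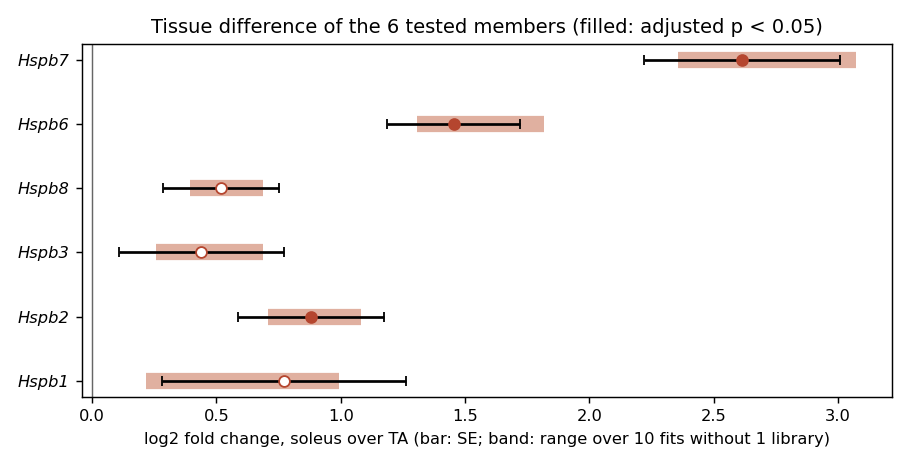
Log2 fold change of soleus over TA for the 6 genes that passed the filter, with bars for the SE, a shaded band for the range over the 10 fits without 1 library, and filled points for called genes. Hspb7 (2.61), Hspb6 (1.45) and Hspb2 (0.88) were called, and all 6 bands lie above 0.

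Levels of different genes are set here per length. The labels name both Tag-Seq and SMART-Seq Stranded libraries, and whether counts grow with transcript length in them was not tested. How reads shared by several transcripts were counted is not given in the sources used here. Per kilobase of the main transcript, Hspb7 had 1683 CPM in soleus and 292 CPM in TA. Hspb6 had 689 CPM per kilobase in soleus and 249 CPM in TA, and Hspb8 had 208 CPM in soleus and 146 CPM in TA. Below these came Hspb3 with 42.4 CPM per kilobase in soleus and 31.8 CPM in TA, Hspb2 with 34.7 in soleus and 18.9 in TA, Hspb1 with 11.0 in soleus and 6.39 in TA, and Cryab with 1.52 in soleus and 1.80 in TA. This order depends on the measure of length. Of the 31-base stretches of the main transcript, 2673 of 2701 are found in no other transcript for Hspb7 but 262 of 1333 for Hspb6. Per 1000 such stretches Hspb6 stood first, with 3587 CPM in soleus and 1297 CPM in TA, against 1744 CPM in soleus and 303 CPM in TA for Hspb7. All 1333 stretches of Hspb6 are found in no other gene, so those left out are shared only with its own other transcripts. Counts are summed over the transcripts of a gene, so this measure can overstate Hspb6. For Hspb1 101 of 873 are found in no other transcript, and the pseudogene Hsp25-ps1 shares sequence with it, so its level is uncertain. Comparisons of 1 gene between the muscles do not depend on this measure.

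Since Hspb7 differed most, the makeup of the family sum differed between the muscles. Hspb7 took 76.9% ± 2.56 of the summed CPM in soleus and 52.0% ± 9.22 in TA (SD over 5 libraries of each muscle). Hspb6 took 15.4% ± 1.14 in soleus and 25.0% ± 7.54 in TA, and Hspb8 took 6.45% ± 2.56 in soleus and 19.4% ± 4.36 in TA. For each of these 3 genes the soleus and TA libraries did not overlap. The same held for the small shares of Hspb2 (0.30% to 0.53% in soleus, 0.69% to 1.55% in TA) and Hspb3 (0.39% to 0.71% in soleus, 0.99% to 2.90% in TA). A share falls where another member rises, so these are 1 description of the levels above and were not tested.

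**Figure D3:**
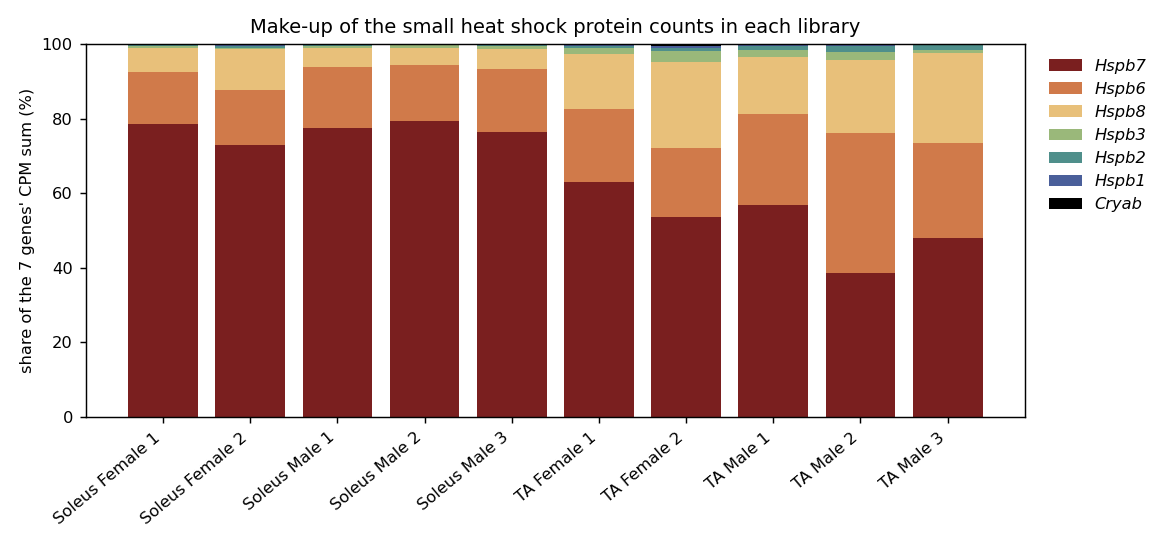
Share of each gene in the summed CPM of the 7 genes (percent, 1 stacked bar per library, soleus then TA). Hspb7 takes a larger share in every soleus library than in any TA library, and Hspb6 and Hspb8 a smaller one.

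Between the sexes no member was called. In the fit of female over male over both muscles, 0 of 6 members passed, against 4.09% of all tested genes (2.78% higher and 1.31% lower in females), and 1 had an unadjusted p under 0.05. That gene was Hspb1, at a log2 value of 1.10 (SE 0.48, edgeR adjusted p = 0.239), which was 0.45 without soleus female 2 (adjusted p = 0.765). It averaged 15.5 CPM in female and 6.28 CPM in male soleus. In TA it averaged 7.99 CPM in females and 4.29 CPM in males, with soleus female 2 and TA female 1 the highest libraries. Libraries of the 2 muscles of 1 mouse are not independent, so p-values of this comparison are too small. Without TA female 1, which leaves 1 female TA library, Hspb6 was lower in females at a log2 value of -0.67, against -0.12 with all libraries.

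Whether the difference between the muscles itself differed between the sexes was tested with an interaction term. It was called for 0 of 6 members and for 0% of all tested genes, at an unadjusted p under 0.05 for 1 member and 351 genes by edgeR, and for 3 genes by the DESeq2 Wald test. The member was Hspb3, whose soleus to TA ratio was 0.724 and 0.757 in the females, against 1.03, 2.58 and 3.67 in the males, an interaction of -1.51 (SE 0.54, adjusted p = 0.708). For Hspb7 it was -1.42 (SE 0.65, edgeR adjusted p = 0.710), which was -0.25 without TA female 1 and -2.08 without TA female 2.

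Genes that work with the family were read from lists of its pathway, and 22.1% of all tested genes were called. These lists and the marker lists below were chosen with earlier results of these data known. Their counts beside the share of all tested genes are descriptions and not a test. Of the other genes of the family, Hspb9, Cryaa and Odf1 had no count and Hspb11 had 10 counts in soleus and 5 in TA. Of the regulators of heat shock transcription, 2 of 6 were tested and neither was called: Hsf2, a heat shock factor, had a log2 fold change of 0.55 (SE 0.38) and Hsbp1, which binds Hsf1, 0.14. Hsf1, the main factor of the heat shock response, had 9 counts in soleus and 9 in TA.

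Of 12 chaperones and co-chaperones known to respond to Hsf1, 9 were tested, with a median log2 fold change of 0.21. Of these, 3 were called higher in soleus and none lower, against 11.0% higher and 11.1% lower of all tested genes. Bag3, the partner of Hspb8, averaged 623 ± 136 CPM in soleus and 305 ± 48.7 CPM in TA (SD, n = 5 each), a log2 fold change of 1.03 (SE 0.15, edgeR adjusted p = 0.000322). The inducible Hsp70 genes Hspa1a and Hspa1b were higher in soleus too, at 4.08 (SE 0.81) and 3.13 (SE 0.70), but they are near-identical copies whose counts are uncertain, and 1 library set much of the size. Hspa1a had 429 CPM in soleus female 2 and 12.3 to 47.7 CPM in the other soleus libraries, against 22.6 CPM in TA female 1 and 0 to 7.19 CPM in the other TA libraries. Without soleus female 2 the values were 2.46 for Hspa1a (edgeR adjusted p = 0.0140) and 1.72 for Hspa1b (adjusted p = 0.0429). Hspa8, the constitutive Hsp70, had 0.79 (adjusted p = 0.0578), and Chordc1, an Hsp90 co-chaperone, -0.47 (adjusted p = 0.0562). The list summed to 2418 CPM in soleus female 2 and 996 to 1195 CPM in the other soleus libraries, against 1018 CPM in TA female 1 and 704 CPM in the lowest TA library. These are the libraries with the highest Hspb1 of each muscle, and the part of this in the members' values was not tested.

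Of 13 genes of chaperone-assisted selective autophagy, the route by which Bag3, Hspb8 and Hsc70 send damaged filamin to the lysosome, 10 were tested. Their median was 0.52, with 3 called higher and 2 lower in soleus, against 11.0% higher and 11.1% lower of all tested genes. Higher were Bag3, Gabarapl1 at 1.20 (SE 0.23) and Gabarap at 1.00 (SE 0.29), both of the family that builds autophagosome membranes. Lower were Vcp, a segregase of ubiquitinated proteins, at -0.54 (SE 0.15), and Map1lc3b, of the same family as Gabarap, at -1.31 (SE 0.41). Map1lc3b was low, with 17 counts in soleus and 46 in TA, and its soleus mean of 4.23 CPM lay near the 3-count limit. Bag3 and Gabarapl1 stayed called whichever of the 10 libraries was left out. Vcp was not called without soleus female 2, TA female 1 or soleus male 2. Gabarap stayed called only without soleus male 1, soleus female 1 or TA female 2, with an adjusted p of up to 0.0837 otherwise. Map1lc3b stayed called only without TA male 2 or soleus female 2, with an adjusted p of up to 0.0957 otherwise.

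Of 16 kinases and phosphatase inhibitors that act on these proteins, 7 were tested, with a median of 0.72. Of these, 3 were called higher in soleus and none lower, against 11.0% higher and 11.1% lower of all tested genes. Mapkapk2, which phosphorylates Hspb1, averaged 809 ± 123 CPM in soleus and 426 ± 52.6 CPM in TA (SD, n = 5 each), a log2 fold change of 0.91 (SE 0.15, edgeR adjusted p = 0.000711). Prkaca, a catalytic subunit of the kinase that phosphorylates Hspb6, had 0.62 (SE 0.15), and Ppp1r1a, an inhibitor of protein phosphatase 1, had 1.44 (SE 0.30). Prkg1, the cGMP-dependent kinase, had 0.72 with adjusted p = 0.0522, just above the threshold. Mapkapk3 (-1.48, SE 0.52, edgeR adjusted p = 0.0619) and Prkacb (-0.28, SE 0.34) had negative values and were not called.

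Of 15 cytoskeletal clients and partners, 13 were tested, with a median of 0.53. Over all tested genes 11.0% were called higher and 11.1% lower. Here 6 were called higher in soleus and none lower. Besides Bag3 these were Plec, a linker of desmin filaments, at 1.62 (SE 0.21), Flnc, the filamin that Hspb7 binds, at 1.68 (SE 0.46), Actn2, the Z-disc actinin, at 1.46 (SE 0.36), Ldb3, a Z-disc protein, at 1.20 (SE 0.24), and Des, desmin, at 0.53 (SE 0.17). Flnc averaged 44.2 ± 42.7 CPM in soleus and 12.3 ± 4.50 CPM in TA (SD, n = 5 each), with 120.1 CPM in soleus female 2. Its value was 1.09 without that library, and it was not called without TA female 1 (adjusted p = 0.0539) or TA female 2. Des was not called without soleus male 1, soleus male 3, soleus female 2, TA male 1, TA male 2 or TA female 1, with an adjusted p of up to 0.103. Ttn, titin, had -0.37 and was not called.

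**Figure D4:**
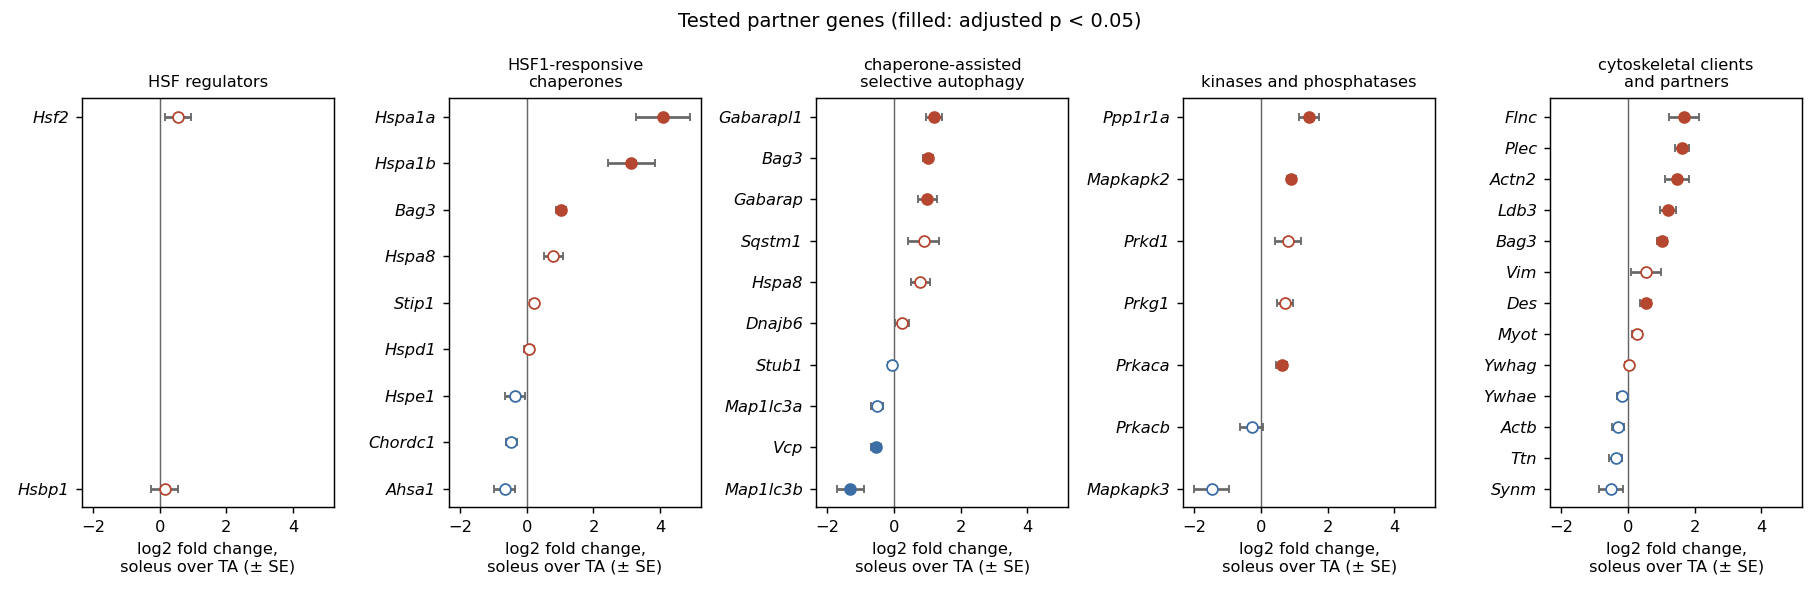
Log2 fold change of soleus over TA with its SE for the tested genes of the pathway lists, by list, with filled points for called genes. Bag3 (1.03), Mapkapk2 (0.91) and Plec (1.62) are among those higher in soleus, and Vcp (-0.54) and Map1lc3b (-1.31) are lower.

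Other cells of the muscle were followed with marker lists, given as summed CPM over a list. Over all tested genes 11.0% were called higher and 11.1% lower in soleus. Smooth muscle and pericyte markers, of interest since smooth muscle also makes Hspb6, summed to 426 to 677 CPM in soleus and 617 to 1220 CPM in TA, with 2 of 4 tested called lower in soleus. Endothelial markers, 3 of 3 tested called lower, summed to 256 to 316 CPM in soleus and 348 to 898 CPM in TA. The pair called in the smooth muscle and pericyte list were Rgs5 (log2 fold change -0.74) and Notch3 (-1.12), and Acta2 (-0.13, edgeR adjusted p = 0.810) and Tagln (-0.15, adjusted p = 0.779) were not called. Adipocyte markers were higher in soleus in 2 of 2 tested, with 28.0 to 38.9 CPM in soleus and 2.05 to 10.7 CPM in TA. Of the tenocyte markers 1 of 5 tested was called higher (283 to 1043 CPM in soleus, 157 to 699 CPM in TA), of the fibro-adipogenic markers 1 higher and 1 lower of 5 (159 to 9776 CPM in soleus, 284 to 3604 CPM in TA), and of the satellite cell markers 1 higher of 1 (54.7 to 208 CPM in soleus, 30.0 to 66.8 CPM in TA). The 1 tested keratinocyte marker, Dsp, was called higher. That list summed to 1.35 to 23.8 CPM in soleus and 0 to 1.19 CPM in TA. Krt14 had no count in either muscle. Krt5 had 2 counts in soleus, and neither Krt5 nor Dsp had a count in TA. No macrophage, Schwann or erythroid marker was called, the sums being 141 to 390 CPM in soleus and 229 to 388 CPM in TA for macrophages, 9.42 to 38.3 CPM in soleus and 10.4 to 25.7 CPM in TA for Schwann cells, and 265 to 37538 CPM in soleus and 1596 to 22167 CPM in TA for erythroid cells. The part of these cells in the members' values was not tested.

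Genes whose pattern over the 10 libraries was most like that of a member were sought among the 3029 genes that averaged 20 CPM or more. Likeness is the root mean square difference of log2 CPM, each gene centred on its own mean, so that 0 is an identical pattern. The nearest to Hspb7 were Rab11fip5 (0.31), Klhl34 (0.33) and Rab15 (0.48), with log2 fold changes of 2.66, 2.49 and 2.79. The nearest to Hspb6 were Ldb3 (0.23), already met among the partners, Ube2g2 (0.28) and Lims1 (0.29). Hspb2 was nearest to Lbh (0.20), Akap6 (0.22) and Atp1b1 (0.24), and Hspb8 to Mical3 (0.24), Dennd5b (0.25) and Ascc3 (0.26). Hspb3 was nearest to Pwp2 (0.31), Mrpl43 (0.32) and Magoh (0.35), and Hspb1 to Il13ra1 (0.23), 9930111J21Rik2 (0.30) and Ugcg (0.31). The libraries share the tissue difference and depth, so this is a description of pattern.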

How the data were processed

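RNA was measured in soleus and TA of 2 female and 3 male wild-type mice. The deposited files hold raw counts per Ensembl transcript, whole numbers with no normalization by the authors. Per the labels, total RNA from a Qiagen fibrous tissue kit entered Tag-Seq at 10 ng, with Takara SMART-Seq Stranded libraries read on an Illumina 500. The submitters' processing notes name bcl2fastq, Trimmomatic 0.32, FastQC and GRCm38.p4. The aligner, the counting tool and the use of strand are not given in the sources used here.

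Of 40414 listed transcripts, 40359 matched GENCODE M21 and were summed to 20009 genes. The 55 unmatched held 0.0304% of the counts and were left out. Sequence particular to a transcript was counted as 31-base stretches found in no other annotated transcript. Promoters are from RefSeq (GRCm38.p6). Totals were 726414 to 961844 counts per library, and floors cover counting error only. The intervals of the fold changes were built from the SE of the edgeR fit, which includes the spread between libraries.

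The main test was edgeR 4.0.16 (quasi-likelihood, TMM, filterByExpr by tissue and sex together, 5115 genes, sex as covariate, Benjamini-Hochberg over all tested genes, threshold 0.05), with limma 3.58.1 and DESeq2 1.42.0 in R 4.3.3. Plots used matplotlib 3.10.9, exact permutation tests scipy 1.17.1, and tables pandas 2.3.3 and numpy 2.4.6, under Python 3.11.15. Log2 CPM for likeness used a prior count of 2. The fit was tested on simulated data.

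Members and gene lists were chosen with earlier results of these data known. The text names all 7 members, from each pathway list up to 4 genes with the smallest p and, where at most 6 were called, every called gene, and the 3 genes most like each tested member. Others named beside these, such as Hsf1, Hspa8 and Ttn, were chosen after their values were seen. Labels do not say that a replicate number is a mouse. Deviations from the tissue and sex means correlated between the soleus and the TA library of a number at 0.229, 0.183 and 0.239 in the male pairs and at 0.285 in the female pairs, which share 1 value by construction, so the numbers were read as pairs. Where they are not separate animals, p-values measure only the spread between these samples. The alternatives tried were other scaling (upper-quartile, or size factors of DESeq2), the Wald test of DESeq2, no filter, a filter at a mean of 5 CPM, totals without Gm20594 and Cep295, protein-coding transcripts only, leaving out each library, and the mouse as a block.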

Additional observations from a re-analysis of the deposited data

Results flagged for a closer look

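Of 14 groups of 5 libraries (7 genes in each muscle), 4 held a library far from the others by Dixon's test. Its chance rate of about 1 in 20 holds for independent groups of normally distributed values. These groups share libraries, and those of Hspb1 and Cryab rest on few counts, so 4 of 14 cannot be set against that rate. Hspb1 had 25.7 CPM in soleus female 2, against 8.36 CPM in the next soleus library, and 11.9 CPM in TA female 1, against 5.77 CPM in the next TA library. Hspb8 had 550.5 CPM in soleus female 2, against 358 CPM in the next soleus library. Cryab had 6.16 CPM in TA female 2, 6 counts, against 1.19 CPM in the next TA library.

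Hspb3 differed between soleus and TA in opposite directions in the sexes, lower in soleus in 2 of 2 females and higher by CPM in 3 of 3 males, though male 1 had 22 counts in each muscle, with an interaction of -1.51 on the log2 scale that missed the threshold (edgeR adjusted p = 0.708).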

How the results depend on the processing

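Hspb7 and Hspb6 kept their direction and their calls in soleus against TA under all 19 alternatives, and Hspb8, Hspb3 and Hspb1 kept their direction wherever they were tested. Leaving out 1 library gave log2 fold changes of 2.36 to 3.07 for Hspb7, 1.31 to 1.82 for Hspb6, 0.71 to 1.08 for Hspb2, 0.39 to 0.69 for Hspb8, 0.26 to 0.69 for Hspb3 and 0.22 to 0.99 for Hspb1, with 2 to 3 members called, and differences of -1.08 to 0.84 CPM for Cryab. Hspb2 lost its call with upper-quartile scaling (0.86, edgeR adjusted p = 0.0550), the DESeq2 Wald test (0.91, adjusted p = 0.0518), no filter (0.83, 0.100) and a mean of at least 5 CPM (0.89, 0.0521); the cause was not tested. With the mouse as a replicate block the fold changes were 2.79 for Hspb7, 1.55 for Hspb6, 0.90 for Hspb2 and 0.56 for Hspb8 (edgeR adjusted p = 0.0797), 3 members were called, and no call of a member changed. Without soleus female 2 and TA female 1, chosen after seeing the data, 5 members were tested. Fold changes were 3.17 for Hspb7, 1.87 for Hspb6, 1.15 for Hspb2 and 0.61 for Hspb8. That fit keeps 1 female library of each muscle, soleus female 1 and TA female 2, read as different mice. Its values for sex and for the interaction rest on these female libraries. Female over male was then -0.21 for Hspb7 and -0.0028 for Hspb8, and the interaction 0.98 for Hspb2, 0.40 for Hspb6 and 0.056 for Hspb8, each of the opposite sign to that with all libraries. Leaving out 1 library, female over male ran from 0.45 to 1.35 for Hspb1, -0.13 to 0.46 for Hspb3, -0.67 to 0.052 for Hspb6, -0.32 to 0.59 for Hspb7 and up to 0.62 for Hspb8, with 0 to 1 members called. The interaction ran from -1.05 to 1.31 for Hspb1, -0.69 to 0.77 for Hspb2, -1.36 to 0.35 for Hspb6, -2.08 to -0.25 for Hspb7 and -0.54 to 0.40 for Hspb8. With no filter the interaction was called for 58 of 20009 genes, 1 of them a member, Hspb7 (-1.48, edgeR adjusted p = 0.0136). Hspb1 and Cryab rest on 66 and 14 counts over the 10 libraries, which limits the precision of their values.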
